A study of Mus musculus with 12 samples.

Results

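Granzymes, perforin and Fas ligand are the effector genes with which cytotoxic lymphocytes kill. The rows of 10 gene symbols (Gzma, Gzmb, Gzmc, Gzmd, Gzme, Gzmf, Gzmg, Gzmk, Prf1 and Fasl) were taken from the deposited table of 45777 genes, and all 10 were found. Of these, 9 had a read in at least 3 of the 12 libraries and were tested, and Gzmg had not. RNA was sequenced from CD4+ T cells of the mouse spleen, 3 libraries in each of 4 groups, and the study asked how *L. acidophilus* and FK506 (tacrolimus, a calcineurin inhibitor) change their gene expression. The cells of every group, the control included, spent 3 days with an antibody to CD3 at 0.5 ug/ml, which triggers the T-cell receptor. The groups received the antibody alone (anti-CD3), the antibody with *L. acidophilus*, the antibody with FK506, or the antibody with both agents (the combination). All cells were labelled wild type, from Balb/c mice aged 7 weeks, whereas the methods of the study name B6 mice and give an older age. Neither source says whether the 3 libraries of a group came from separate mice, so the p-values measure the spread between these libraries, which can be technical. In such bulk samples, fewer cells of a type and less RNA per cell cannot be told apart.

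A cytotoxic cell stores granzymes and perforin in granules and releases them at the contact with its target. Perforin makes pores in the target membrane, and granzymes, which are serine proteases, enter and cleave proteins inside. Fas ligand works without granules: it binds the receptor Fas on the target and starts caspase-dependent death. These genes are best known from CD8+ T cells and natural killer (NK) cells, but activated CD4+ T cells can also make them. Calcineurin, the enzyme that FK506 inhibits, activates NFAT factors after stimulation of the T-cell receptor.

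In the mouse genome (RefSeq, GRCm38.p6) the members lie on 4 chromosomes. Gzmb, Gzmc, Gzmd, Gzme, Gzmf and Gzmg lie within 144716 bases of chromosome 14 (chr14:56117619-56262334), all on the minus strand. Gzma (chr13:113093824-113100981) and Gzmk (chr13:113171630-113180965) are neighbours on chromosome 13, Prf1 lies at chr10:61297751-61304684 and Fasl at chr1:161780691-161788495. The 250 bases before the start site of 6 members are printed here because these members carry the results below, and capitals mark the Runx core TGTGGT or its reverse complement ACCACA. The start sites used for Gzmc and Prf1, and for Gzmd among the windows not printed, lie inside the span annotated for the gene.
Gzmb (chr14:56262335-56262584, minus strand): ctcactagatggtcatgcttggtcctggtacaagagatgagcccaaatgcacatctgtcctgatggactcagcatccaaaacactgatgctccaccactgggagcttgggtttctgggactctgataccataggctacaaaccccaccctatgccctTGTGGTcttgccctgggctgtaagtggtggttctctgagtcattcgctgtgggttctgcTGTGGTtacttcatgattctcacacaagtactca
Prf1 (chr10:61297586-61297835, plus strand): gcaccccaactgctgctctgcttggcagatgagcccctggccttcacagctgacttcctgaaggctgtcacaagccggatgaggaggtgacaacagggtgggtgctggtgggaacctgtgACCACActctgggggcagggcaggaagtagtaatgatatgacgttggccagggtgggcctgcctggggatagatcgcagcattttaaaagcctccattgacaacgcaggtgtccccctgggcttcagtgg
Gzma (chr13:113100982-113101231, minus strand): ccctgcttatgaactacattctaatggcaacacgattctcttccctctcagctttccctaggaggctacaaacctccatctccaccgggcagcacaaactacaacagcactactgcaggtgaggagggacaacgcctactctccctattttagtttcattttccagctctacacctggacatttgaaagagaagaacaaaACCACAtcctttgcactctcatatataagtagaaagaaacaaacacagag
Gzmc (chr14:56234658-56234907, minus strand): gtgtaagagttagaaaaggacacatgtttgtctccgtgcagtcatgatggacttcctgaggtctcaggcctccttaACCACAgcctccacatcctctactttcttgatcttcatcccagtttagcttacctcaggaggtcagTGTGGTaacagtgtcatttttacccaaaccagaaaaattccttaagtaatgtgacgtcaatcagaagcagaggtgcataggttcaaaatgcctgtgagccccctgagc
Gzmk (chr13:113180966-113181215, minus strand): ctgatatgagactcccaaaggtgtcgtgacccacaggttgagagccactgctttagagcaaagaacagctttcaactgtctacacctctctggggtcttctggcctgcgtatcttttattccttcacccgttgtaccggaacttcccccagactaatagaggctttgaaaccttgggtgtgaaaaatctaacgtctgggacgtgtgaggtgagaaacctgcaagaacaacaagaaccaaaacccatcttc
Fasl (chr1:161788496-161788745, minus strand): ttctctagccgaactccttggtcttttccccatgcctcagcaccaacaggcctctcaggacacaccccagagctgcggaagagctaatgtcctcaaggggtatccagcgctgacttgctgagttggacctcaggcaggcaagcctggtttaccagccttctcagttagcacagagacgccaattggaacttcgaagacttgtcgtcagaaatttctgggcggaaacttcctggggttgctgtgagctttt
Of 7 short motifs searched on both strands, the Runx core (TGTGGT) was found in 8 of the 10 windows, against 14% of 32851 windows of the same length before other genes. It was absent from the windows of Gzmk and Fasl. The capitals were set on this motif after the counts of all 7 were seen, and 5 of the 8 windows are those of Gzmc to Gzmg, which resemble each other. The NFAT core (GGAAA) was found in 6 windows (55.6% of all windows), the CRE core (TGACG) in 5 (17.8%), the T-box core (AGGTGT) in 3 (11.8%) and the AP-1 site (TGANTCA) in 1, that of Gzmb (6.75%). The STAT site (TTCNNNGAA; 7.02%) and the TATA box (TATAAA; 12.4%) were found in 0 windows. A match is a description of the letters and shows no binding.

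The 5 windows of Gzmc, Gzmd, Gzme, Gzmf and Gzmg were 71.5% to 94.8% identical in their 10 pairs, against 46.2% to 53.0% in the 35 other pairs of members. All 5 hold the same run of 20 bases, shown because it lies close to the start in each, from position -45 to -26 in Gzmc and from -70 to -51 in Gzmf.
Run shared by Gzmc to Gzmg: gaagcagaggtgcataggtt
Their transcripts overlap too. Of the 50-base stretches of the transcript, 21.5% in Gzmd, 19.1% in Gzme, 15.2% in Gzmg, 7.36% in Gzmf and 4.14% in Gzmc also occur in another member. The share was 0 for Gzma, Gzmb, Gzmk, Prf1 and Fasl. Of 100-base stretches, 0.231% in Gzmd and 0.247% in Gzmg were shared and 0 in the other members. How the deposited counts split such reads is not given in the sources used here, so the values of Gzmc to Gzmg are uncertain as far as shorter stretches decide the assignment.

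Libraries had 45416397 to 64658165 counts. The 4 libraries numbered replicate 1 were the deepest, and with FK506 and with the combination they also had the highest Gzmb, Gzmc and Prf1 of their group, together with the highest summed NK cell, mast cell and myeloid markers. Results that rest on them are given without them too (replicates 2 and 3 alone). By a chi-square of their counts per degree of freedom, replicates 2 and 3 were closer to each other than to replicate 1 with *L. acidophilus* (9.57 against 59.5 and 60.2) and with the combination (4.61 against 78.7 and 86.8). With anti-CD3 the values were 180 against 100 and 205, and with FK506 47.7 against 47.8 and 62.5. The p-values of these 2-library groups rest on that spread. CD4 and other CD4 T cell markers were high in every library: 7 genes summed to 1103 to 1700 FPKM (fragments scaled to transcript length and library depth), and in the combination against anti-CD3 edgeR called 0 of 7, beside 24.6% of all genes, although 5 had an unadjusted p under 0.05. Cd4 was at 131 to 256 FPKM and Cd3e at 136 to 306 FPKM, both highest in the combination. Cd8a stayed between 0.0993 and 2.18 FPKM and was highest with FK506. Leaving out the TMM scaling shifts all log2 changes up by 0.21 in the combination against anti-CD3 and by 0.11 in FK506 against anti-CD3. A gene was called changed when edgeR's quasi-likelihood test gave a Benjamini-Hochberg adjusted p under 0.05 over the 23585 genes tested and the change was at least 2-fold.

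Gzmb was the most abundant member in every library and fell with FK506 and with the combination. Granzyme B cleaves after aspartate and activates caspases in the target. With anti-CD3 alone its level was 425, 501 and 415 FPKM in replicates 1, 2 and 3. *L. acidophilus* libraries had 178, 208 and 275 FPKM, FK506 libraries 136, 32.1 and 42.8, and combination libraries 164, 50.5 and 51.3. All 9 treated libraries were below the 3 anti-CD3 libraries, the FK506 and combination libraries were all below those of *L. acidophilus*, and the FK506 and combination libraries overlapped. Gzmb fell by 2.80 on the log2 scale with FK506 (SE 0.57, edgeR adjusted p = 0.00602) and by 2.53 with the combination (SE 0.57, edgeR adjusted p = 0.00357). With *L. acidophilus* the log2 change was -1.10 (SE 0.54, edgeR adjusted p = 0.365), which was not called. The combination differed from FK506 by 0.27 (SE 0.54, edgeR adjusted p = 0.783), less than its standard error. With replicates 2 and 3 alone the combination changed it by -3.39 (edgeR adjusted p = 0.000241) and FK506 by -3.70 (edgeR adjusted p = 0.000365).

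**Figure D1:**
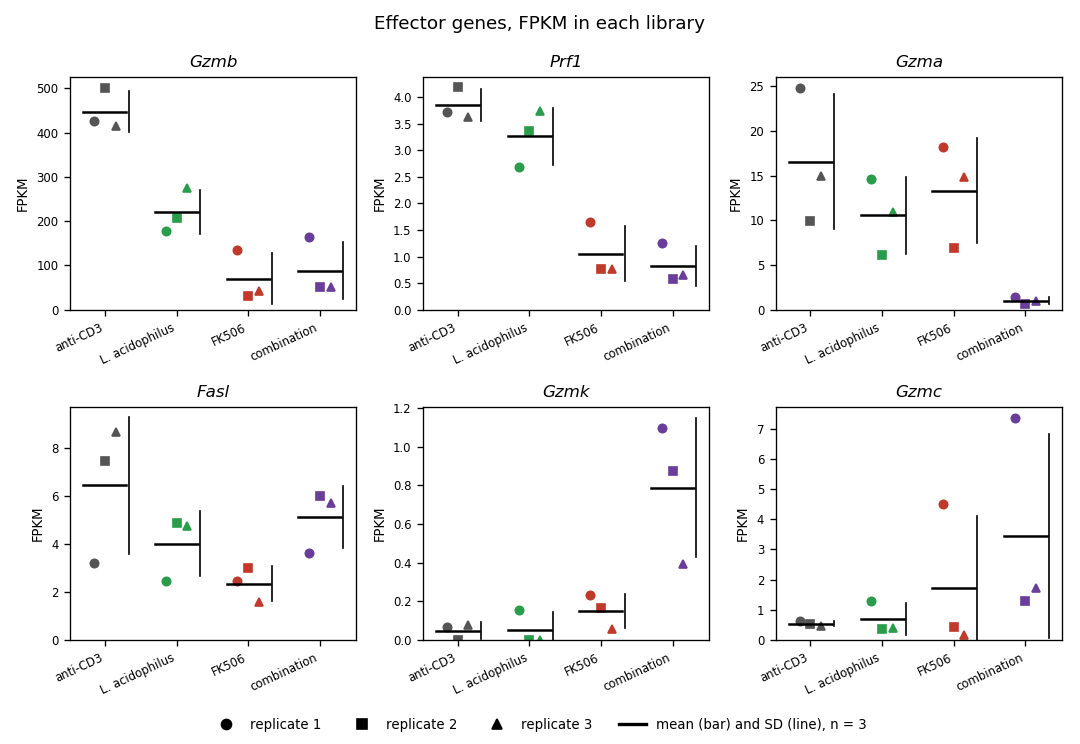
FPKM of 6 effector genes in each of the 12 libraries, by group (x axis), with the replicate number as the symbol, the mean as a horizontal bar and the SD of 3 libraries as a vertical line drawn no lower than 0. Gzmb and Prf1 are lowest with FK506 and the combination, Gzma is at 0.673 to 1.42 FPKM in the combination and at 6.11 FPKM or more elsewhere, and Gzmk is highest in the combination.

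Prf1, the gene of perforin, moved with Gzmb. It measured 3.72, 4.19 and 3.63 FPKM with anti-CD3 alone and 2.68, 3.36 and 3.74 FPKM with *L. acidophilus*. FK506 libraries had 1.65, 0.762 and 0.762 FPKM, and combination libraries 1.25, 0.571 and 0.646. The FK506 and combination libraries lay below all 6 others, while anti-CD3 and *L. acidophilus* overlapped. Prf1 fell by 1.96 with FK506 (SE 0.34, edgeR adjusted p = 0.00259) and by 2.42 with the combination (SE 0.35, edgeR adjusted p = 0.0002). The combination was also 2.11 lower than *L. acidophilus* on the log2 scale, a value of -2.11 (SE 0.35, edgeR adjusted p = 0.000767). Against FK506 alone it differed by -0.46 (SE 0.34, edgeR adjusted p = 0.383). With replicates 2 and 3 alone Prf1 changed by -2.87 in the combination (edgeR adjusted p = 0.000225) and by -2.41 with FK506 (edgeR adjusted p = 0.000513).

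Gzma behaved otherwise. Granzyme A is a protease that cuts after arginine and lysine. Its level was 24.8, 9.94 and 14.9 FPKM with anti-CD3 alone, 14.6, 6.11 and 10.9 FPKM with *L. acidophilus* and 18.2, 6.90 and 14.9 FPKM with FK506. In the combination it was 1.42, 0.673 and 0.998 FPKM. The first 3 groups overlapped, and every combination library lay below all 9 other libraries. In each group replicate 1 was the highest and replicate 2 the lowest. Gzma fell by 4.18 in the combination against anti-CD3 (SE 0.51, edgeR adjusted p = 6.42e-05), by 3.76 against FK506 (SE 0.50, edgeR adjusted p = 0.000654) and by 3.45 against *L. acidophilus* (SE 0.49, edgeR adjusted p = 0.000333). FK506 alone changed it by -0.43 (SE 0.43, edgeR adjusted p = 0.534) and *L. acidophilus* alone by -0.73 (SE 0.43, edgeR adjusted p = 0.447). Neither was called.

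Gzmk rose in the combination from very few reads. Granzyme K is a trypsin-like protease. Its counts were 6, 0 and 6 with anti-CD3 alone, 13, 0 and 0 with *L. acidophilus*, 19, 10 and 4 with FK506 and 88, 50 and 24 with the combination. Every combination library had more reads than any other library, and 3 of the 6 libraries without FK506 had 0. The log2 change was 3.61 against anti-CD3 (SE 1.09, edgeR adjusted p = 0.0181) and 3.62 against *L. acidophilus* (SE 1.08, edgeR adjusted p = 0.0221). The first call was lost without anti-CD3 replicate 2 (adjusted p = 0.0502) or combination replicate 1 (adjusted p = 0.0562). The second was lost without *L. acidophilus* replicate 2 (adjusted p = 0.0642), *L. acidophilus* replicate 3 (adjusted p = 0.0642), combination replicate 1 (adjusted p = 0.0669) or combination replicate 2 (adjusted p = 0.0531). With limma on log2(FPKM + 1) both changes were under 2-fold and not called, at 0.61 against anti-CD3 and 0.63 against *L. acidophilus*. With replicates 2 and 3 alone both were called, at 3.56 against anti-CD3 (adjusted p = 0.037) and with an adjusted p of 0.0131 against *L. acidophilus*, whose replicates 2 and 3 are at 0, so that no fold is given. Against FK506 the combination differed by 2.23 (SE 0.98, edgeR adjusted p = 0.137), which was not called. That change was called with limma on log2(FPKM + 0.1) (1.535, adjusted p = 0.0342) and with only the 6 libraries compared (2.21, edgeR adjusted p = 0.0271).

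Gzmc is a granzyme found in rodents, and its libraries differed widely within every group but anti-CD3. It measured 0.623, 0.512 and 0.465 FPKM with anti-CD3 alone, 1.30, 0.348 and 0.402 FPKM with *L. acidophilus*, 4.50, 0.439 and 0.177 FPKM with FK506 and 7.35, 1.30 and 1.71 FPKM with the combination. Replicate 1 was far above replicates 2 and 3 in the last 3 groups. Every combination library was above the anti-CD3 libraries, but the log2 change of 2.50 (SE 1.04, edgeR adjusted p = 0.0714) was not called. It was called with DESeq2 (2.53, adjusted p = 0.0172), with only the 6 libraries compared (2.51, adjusted p = 0.0204), with the replicate block (1.98, adjusted p = 0.0258), and without FK506 replicate 1 (adjusted p = 0.0164) or replicate 3 (adjusted p = 0.0414). With replicates 2 and 3 alone it was 1.41 (adjusted p = 0.0243), and the FK506 change turned from 1.56 (edgeR adjusted p = 0.318) to -0.80.

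The other 4 granzymes of the chromosome 14 group were at or near 0. Gzmd had 10, 5, 0 and 10 reads in all 3 libraries together of anti-CD3, *L. acidophilus*, FK506 and the combination, Gzme had 3, 6, 0 and 12, and Gzmf had 15, 14, 8 and 11. Gzmg had 2 reads with *L. acidophilus*, 3 with the combination and 0 elsewhere. No library held more than 15 reads of any of the 4, and no difference between groups was detectable at this depth. A count of 3 was taken as the floor, which covers counting error only.

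**Figure D2:**
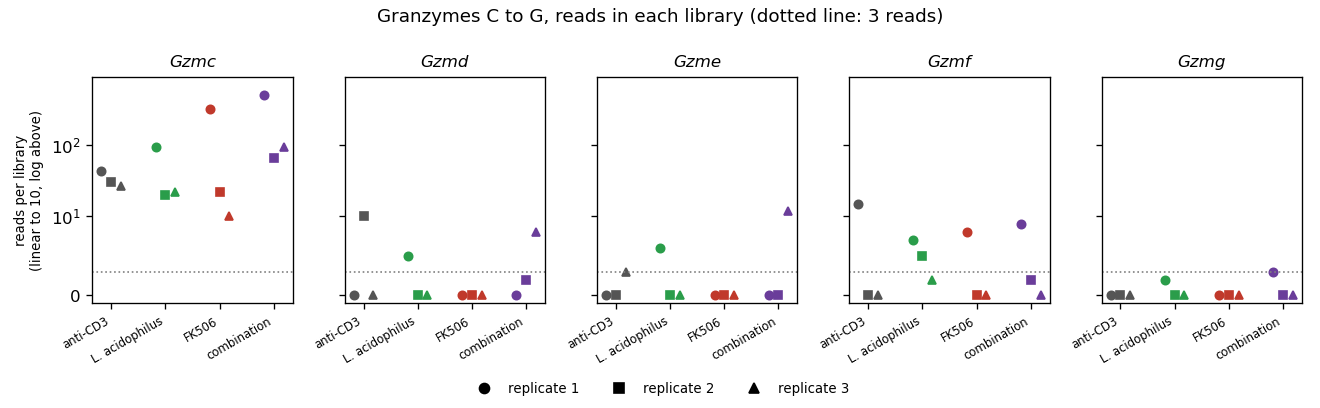
Reads of Gzmc to Gzmg in each library (y axis linear to 10 and logarithmic above, dotted line at 3 reads) by group, with the replicate number as the symbol. Gzmc reaches 505 reads in combination replicate 1, while Gzmd to Gzmg stay at 15 reads or fewer.

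Fasl fell with FK506, and the level in the combination lay near that of *L. acidophilus*. Anti-CD3 libraries had 3.21, 7.49 and 8.67 FPKM, *L. acidophilus* libraries 2.46, 4.87 and 4.74, FK506 libraries 2.46, 3.01 and 1.57, and combination libraries 3.63, 6.01 and 5.72. The FK506 libraries were all below those of anti-CD3 and of the combination, and replicate 1 was the lowest of its group in all groups but FK506. Fasl fell by 1.56 with FK506 (SE 0.38, edgeR adjusted p = 0.0135), a call lost without FK506 replicate 3 (adjusted p = 0.0549) and kept with replicates 2 and 3 alone (-1.91, adjusted p = 0.00368). The combination changed it by -0.53 against anti-CD3 (SE 0.37, edgeR adjusted p = 0.266) and by 1.03 against FK506 (SE 0.37, edgeR adjusted p = 0.0742). The latter was called without anti-CD3 replicate 1 (adjusted p = 0.0304), with replicates 2 and 3 alone, at 1.24 (adjusted p = 0.0171), with DESeq2, at 1.07 (adjusted p = 0.0201), and with only the 6 libraries compared (adjusted p = 0.0312). Fas, the receptor, was at 21.9 to 33.7 FPKM in all 12 libraries.

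By comparison, 4 of the 9 tested members were called in the combination against anti-CD3 (Gzma, Gzmb and Prf1 lower, Gzmk higher), where 24.6% of all genes tested were called (13.8% higher and 10.8% lower). In FK506 against anti-CD3, 3 of 9 were called lower (Gzmb, Prf1 and Fasl), beside 10.6% of all genes (6.44% higher and 4.12% lower). *L. acidophilus* against anti-CD3 gave 0 of 9 with edgeR, beside 0.187% of all genes (0.157% higher and 0.0297% lower). There 0 members had an unadjusted p under 0.05, and DESeq2 also called 0. In the combination against FK506 only Gzma of the 9 was called, beside 7.44% of all genes (3.84% higher and 3.6% lower). Against *L. acidophilus*, the combination gave 3 of 9 (Gzma and Prf1 lower, Gzmk higher), beside 16.6% of all genes (9.93% higher and 6.64% lower). In that comparison same-numbered libraries deviated together, and with the replicate number as a block 5 of 9 were called, with Gzmb at -1.72 (adjusted p = 0.0194) and Gzmc at 2.08 (adjusted p = 0.023) added. In FK506 against *L. acidophilus* 1 of 9 was called, beside 4.99% of all genes (3.51% higher and 1.48% lower): Prf1, at -1.65 (SE 0.34, edgeR adjusted p = 0.0123), lost without *L. acidophilus* replicate 3 (adjusted p = 0.0531) or FK506 replicate 2 (adjusted p = 0.0639). These comparisons share groups, so their counts are not independent.

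**Figure D3:**
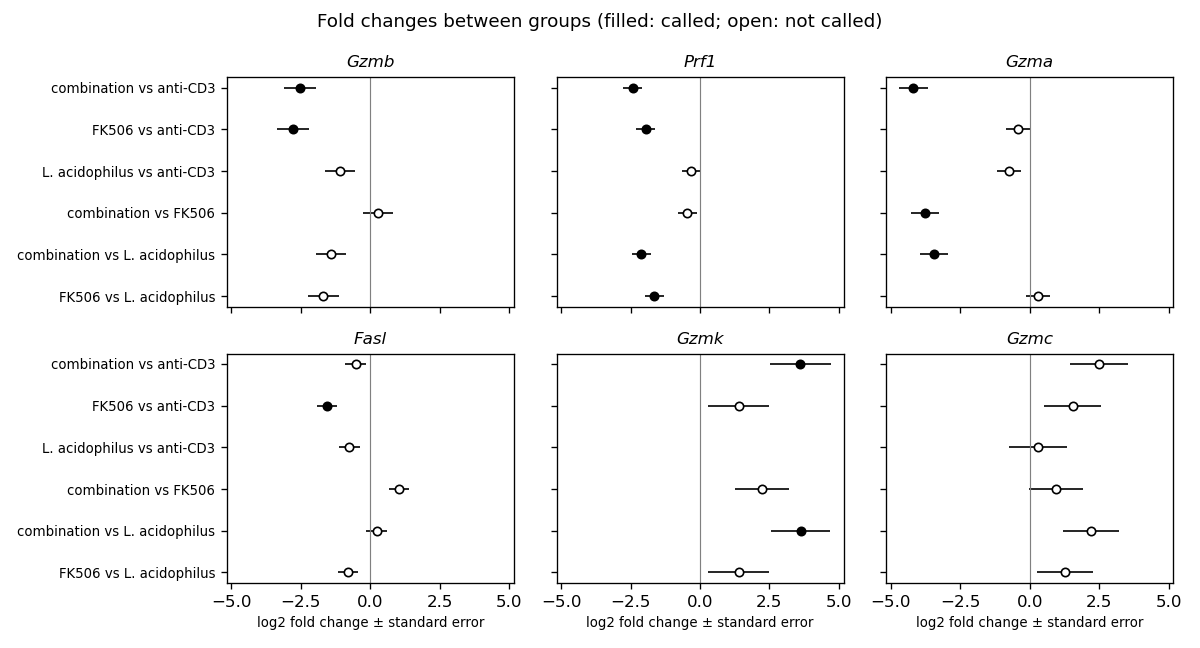
Log2 fold changes with their standard errors (x axis) of 6 members in the 6 comparisons between groups (y axis), from edgeR, with filled points for called changes. Gzma has called changes of -4.18, -3.76 and -3.45, all in comparisons with the combination, and Gzmk in *L. acidophilus* against anti-CD3 is left out because both groups have few reads.

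The 2 agents were given alone and together, so the change in the combination can be set against the sum of the single changes on the log2 scale. Of 9 tested members, 1 departed from that sum at an adjusted p under 0.05, beside 4.35% of all genes (1.35% upwards and 3% downwards). Gzma was lower than the sum by a log2 value of -3.02 (SE 0.64, edgeR adjusted p = 0.0248). This call was lost when any of 6 libraries was left out: anti-CD3 replicate 3 (adjusted p = 0.0514), *L. acidophilus* replicate 3 (adjusted p = 0.0606), FK506 replicate 1 (adjusted p = 0.052) or replicate 3 (adjusted p = 0.0592), and combination replicate 2 (adjusted p = 0.0678) or replicate 3 (adjusted p = 0.0647). With replicates 2 and 3 alone it was also lost, at -3.21 (adjusted p = 0.0513), and Fasl was then the member called. With the replicate block the Gzma departure was -3.02 (adjusted p = 0.000459), and it was also called with DESeq2. Fasl departed upwards by 1.79 (SE 0.52, edgeR adjusted p = 0.0797), which was not called. It was called with replicates 2 and 3 alone (2.05, adjusted p = 0.0386), without anti-CD3 replicate 1 (adjusted p = 0.0294), with the replicate block (1.70, adjusted p = 0.0364) and with DESeq2 (1.83, adjusted p = 0.00809).

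The members' summed FPKM was mostly Gzmb: its share was 92.9% to 95.7% in anti-CD3 libraries, 89.3% to 93.4% in *L. acidophilus* libraries, 71.1% to 83.3% in FK506 libraries and 83.9% to 91.7% in combination libraries. Gzma made up 11.2% to 24.7% of the sum with FK506 and 0.794% to 1.63% with the combination.

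For the 5 members with a mean of at least 1 FPKM, the genes with the most alike pattern were found as the smallest root mean square difference of centred log2 values over the 12 libraries, among 12221 genes. Nearest to Gzma were Il5 (0.475), Epas1 (0.495) and Akr1c12 (0.502). Gzmb was nearest to Prf1 (0.496), Ly6a (0.499) and Ifitm3 (0.579). Prf1 was nearest to Efemp2 (0.374), Ptgir (0.41) and Slc4a11 (0.415), and Fasl to Tespa1 (0.367), Bhlhe40 (0.372) and Stk39 (0.381). Nearest to Gzmc were Adam8 (0.772), Ifngr1 (0.791) and Hebp1 (0.798). These distances depend on how much a member itself varies, so they do not rank the members by closeness. The root mean square spread was 0.7 for Fasl, 1.134 for Prf1, 1.399 for Gzmb, 1.419 for Gzmc and 1.718 for Gzma.

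Genes that load granules and mature their proteases moved in both directions. In the combination against anti-CD3, 2 of 9 tested were called higher and 2 lower, beside 13.8% higher and 10.8% lower of all genes tested, with a median log2 change of 0.13 against 0.02 for all genes. Nkg7, a granule protein needed for release, had 96.6, 132 and 102 FPKM with anti-CD3 alone, 19.1, 7.83 and 7.75 FPKM with FK506 and 8.10, 8.63 and 8.08 FPKM with the combination. It fell by 3.94 in the combination (SE 0.32, edgeR adjusted p = 8.7e-06) and by 3.37 with FK506 (SE 0.31, edgeR adjusted p = 0.000111). Cst7, the cathepsin inhibitor cystatin F, fell by 1.34 in the combination (SE 0.16, edgeR adjusted p = 5.59e-05). With limma, which was run on quantile-normalized values throughout, its fall was under 2-fold (-0.84 on log2(FPKM + 1) and -0.85 on log2(FPKM + 0.1)). The proteases cathepsin H (Ctsh, 3.51, SE 0.60, edgeR adjusted p = 0.000589) and cathepsin L (Ctsl, 1.32, SE 0.27, edgeR adjusted p = 0.00183) rose, the latter by less than 2-fold without combination replicate 1 (0.98) or with replicates 2 and 3 alone (0.84). Of 11 tested genes of granule transport and release, 0 were called by edgeR in the combination against anti-CD3 (median -0.16), although 7 had an unadjusted p under 0.05, and with FK506 1 of 11 was called, about the 10.6% of all genes called there: Lyst, a regulator of lysosome size, at 1.37 (SE 0.26, edgeR adjusted p = 0.00411).

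Of 6 serpins that block granzymes or related proteases, 2 were called higher and 2 lower in the combination against anti-CD3 (median 0.44), beside 13.8% and 10.8% of all genes. Serpinb6a had 11.3 to 23.3 FPKM with anti-CD3 alone and 53.5, 48.5 and 46.4 FPKM with the combination, a rise of 1.27 (SE 0.24, edgeR adjusted p = 0.00104). Serpina3g fell by 1.36 (SE 0.34, edgeR adjusted p = 0.00658), and Serpina3f by 1.18 (SE 0.32, edgeR adjusted p = 0.0109), but without anti-CD3 replicate 2 neither was called (-0.78 and -0.76). With limma both were under 2-fold, Serpina3g at -0.73 on both scales and Serpina3f at -0.93 on log2(FPKM + 1) and -0.99 on log2(FPKM + 0.1). Serpina3f was also under 2-fold (-0.95) without TMM scaling, and Serpinb6a was under 2-fold (0.94) with replicates 2 and 3 alone. Serpinb9, the inhibitor of granzyme B, was chosen after its values were seen: against anti-CD3 its log2 change of 1.00 (SE 0.30, edgeR adjusted p = 0.019) fell just short of 2-fold and was not called, and it was 1.31 higher in the combination than with FK506 (SE 0.31, edgeR adjusted p = 0.012). In the death receptor pathway, 0 of 14 were called higher and 2 lower (median -0.10), beside 13.8% and 10.8% of all genes. Bax, which permeabilises mitochondria, fell by 1.02 (SE 0.24, edgeR adjusted p = 0.00465), and Tnfrsf10b, the TRAIL receptor, by 1.11 (SE 0.16, edgeR adjusted p = 0.000193). Both were close to the limit of 2-fold: without TMM scaling Bax was at -0.80 and Tnfrsf10b at -0.90, and without anti-CD3 replicate 2 Bax was at -0.59. Bax also fell short of 2-fold without FK506 replicate 3 (-0.99), combination replicate 2 (-0.99) or combination replicate 3 (-0.98), and Tnfrsf10b without combination replicate 1 (-0.99) or with replicates 2 and 3 alone (-0.98). Tnfrsf10b was also just under 2-fold with limma on log2(FPKM + 1), at -0.9998. With limma Bax missed both thresholds, at -0.41 on log2(FPKM + 1) (adjusted p = 0.0622) and -0.42 on log2(FPKM + 0.1) (adjusted p = 0.0572), and it was also under 2-fold with DESeq2 (-0.99) and the replicate block (-0.99).

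Transcription factors of cytotoxic T cells were called in 8 of 17 in the combination against anti-CD3 (2 higher, 6 lower, median -0.24), beside 24.6% of all genes (13.8% higher, 10.8% lower). Tbx21, the gene of T-bet, had 35.2, 49.8 and 33.8 FPKM with anti-CD3 alone, 12.5, 13.3 and 24.3 FPKM with FK506 and 6.40 to 11 FPKM with the combination. It fell by 2.33 in the combination (SE 0.28, edgeR adjusted p = 6.75e-05). Eomes, its relative, went the other way, from 0.773, 0.444 and 0.635 FPKM to 13.1, 5.95 and 6.34 FPKM, a log2 change of 3.56 (SE 0.43, edgeR adjusted p = 5.97e-05). Batf fell by 1.97 (SE 0.35, edgeR adjusted p = 0.000842) and Irf4 by 1.33 (SE 0.21, edgeR adjusted p = 0.000366), both factors that act together after stimulation of the receptor. With limma Irf4 was under 2-fold (-0.84 on log2(FPKM + 1) and -0.85 on log2(FPKM + 0.1)). Of 14 surface and chemokine genes of cytotoxic CD4 T cells, 4 were called higher and 4 lower (median 0.36), beside 13.8% and 10.8% of all genes. Among them Klrg1, an inhibitory receptor, rose by 5.24 (SE 0.98, edgeR adjusted p = 0.00116) and Xcl1, a chemokine, by 1.79 (SE 0.60, edgeR adjusted p = 0.0299), while the chemokine Ccl4 fell by 1.66 (SE 0.27, edgeR adjusted p = 0.000472) and the adhesion molecule Crtam by 1.49 (SE 0.36, edgeR adjusted p = 0.00555). The call of Xcl1 was lost without combination replicate 2 (adjusted p = 0.0789) or replicate 3 (adjusted p = 0.069), and with only the 6 libraries compared (adjusted p = 0.069). With *L. acidophilus* alone, 0 genes of these lists were called by edgeR, where 0.187% of all genes were called, and 4 of the 17 transcription factors and 5 of the 14 surface and chemokine genes had an unadjusted p under 0.05.

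**Figure D4:**
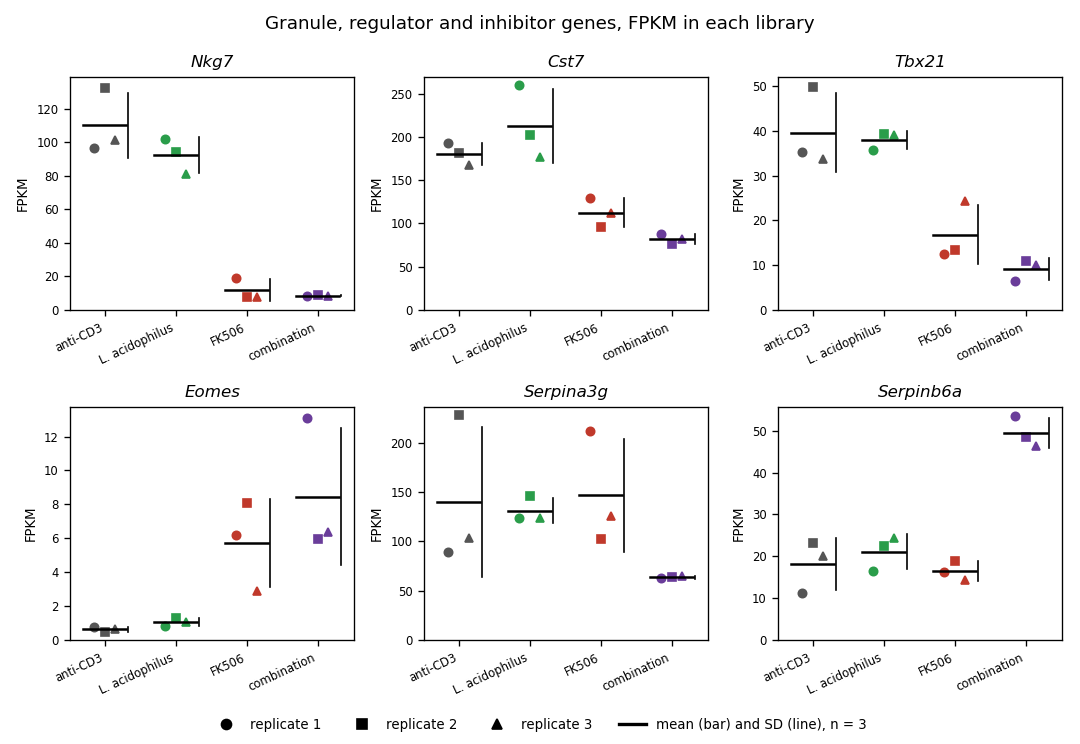
FPKM of 6 related genes in each library by group, with symbols, mean bars and SD lines as in the plot of the effector genes. Nkg7 and Tbx21 are low with FK506 and the combination, Eomes is high there, and Serpinb6a is highest in the combination.

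Markers of several other cell types were higher in the groups in which the members changed. Summed over 9 genes, NK cell markers ranged from 1.67 to 2.27 FPKM in anti-CD3 libraries, 1.63 to 3.41 in *L. acidophilus* libraries, 2.28 to 7.86 in FK506 libraries and 15.0 to 35.9 in combination libraries, and 4 of 7 tested were called higher both in the combination and with FK506 against anti-CD3, beside 13.8% and 6.44% of all genes. In the combination this sum was mostly Fcer1g (8.65 to 21 FPKM) and Tyrobp (4.82 to 11.9 FPKM), which myeloid cells also express, and Klre1 and Klra8 were at 0. Klrb1c was at 0 in the anti-CD3 libraries and at 0.19 to 0.322 FPKM in the combination. Ncr1, which defines NK cells, was at 0 in 7 of 12 libraries and at most 0.873 FPKM, in combination replicate 1. Myeloid markers (6 genes) lay between 2.39 and 3.58 FPKM in anti-CD3 libraries and between 54.1 and 75.0 in combination libraries, with 5.82 to 19.7 in FK506 libraries. Of 6, 6 were called higher in the combination (13.8% of all genes) and 5 with FK506 (6.44%). Among them Csf1r was at 0 in all 3 anti-CD3 libraries and at 0.705 to 0.921 FPKM in the combination, and Lyz2 rose to between 14.5 and 30.8 FPKM. B cell markers (6 genes) lay between 36.9 and 58.2 FPKM in anti-CD3 libraries, 210 and 424 in FK506 libraries, and 122 and 145 in combination libraries, with 6 of 6 called higher with FK506 and 3 of 6 in the combination. Ms4a1, a B cell surface protein, reached 26.1 to 61.2 FPKM with FK506. The sum of 5 mast cell and basophil markers was 0.0829 to 0.158 FPKM in anti-CD3 libraries, 0.126 to 1.52 in *L. acidophilus* libraries, 0.619 to 1.77 in FK506 libraries and 7.27 to 10.3 FPKM in combination libraries. In the combination it was mostly Kit, with Mcpt8 at 0 in 2 of 3 libraries, and Kit was called higher than with anti-CD3 both there and with FK506. Markers of γδ T cells (3 genes) reached 12.5 to 20.7 FPKM with FK506 and at most 14.7 FPKM with the combination, against 3.31 to 4.75 FPKM in anti-CD3 libraries, with 3 of 3 called higher with FK506 and 2 of 3 in the combination. In both groups this sum was mostly Blk, at 6.41 to 13.7 FPKM with FK506 and 7.53 to 10.7 FPKM with the combination. Blk was higher in both than with anti-CD3, as were the B cell sums. Trdc was at 5.11 to 6.51 FPKM with FK506 and 3.23 to 6.51 FPKM with the combination, where it was not called. The sum of the 3 markers of plasmacytoid dendritic cells was carried by Bst2 and went down, from 80.9 to 91.6 FPKM in anti-CD3 libraries to between 28.4 and 44.1 FPKM in FK506 libraries. It was 31.8 to 90.5 FPKM in combination libraries. Bst2 was called lower with FK506 and Ccr9 higher in the combination, and Siglech was at or near 0. The 2 CD8 T cell markers summed to 2.21 to 5.14 FPKM in anti-CD3 libraries, 4.63 to 9.02 FPKM in FK506 libraries and 4.34 to 5.01 FPKM in combination libraries. Of 2, Cd8a was called higher with FK506, and in the combination 0 of 2 were called by edgeR, with 0 at an unadjusted p under 0.05. The part of these cells in the levels of the members was not tested.

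**Figure D5:**
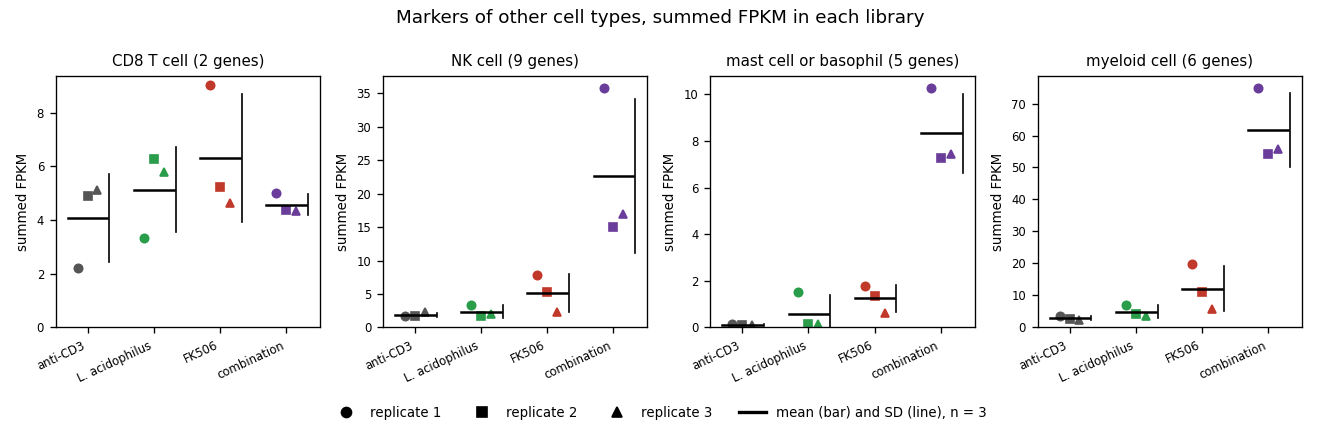
Summed FPKM of markers of CD8 T cells, NK cells, mast cells or basophils and myeloid cells in each library by group, with symbols, mean bars and SD lines as in the plot of the effector genes. The NK cell and myeloid sums are highest in the combination and, within it, in replicate 1.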

How the data were processed

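RNA-seq of 12 mouse CD4+ T cell libraries (4 groups of 3, grouped by the sample labels) was analysed. The authors deposited 1 table with whole-number read counts per gene, not normalized, and FPKM scaled by the authors to transcript length and library size. The TPM columns, also computed by the authors before deposit, were not used. The quantile normalization named in the methods cannot be seen in these FPKM columns, since their sums differ between libraries. Among low counts, even numbers slightly outnumber odd ones, so some may be rounded estimates. The submitters' processing notes name bcl2fastq 2.20.0, Trimmomatic, HISAT2 2.1.0 and StringTie 2.1.3b with GRCm38 (mm10). The counting tool and its strand setting are not given in the sources used here.

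Counts were tested with edgeR 4.0.16 in R 4.3.3 (quasi-likelihood test, TMM factors, genes above 0 in at least 3 libraries, all 12 libraries in the fit, 1 mean per group). A call needed a Benjamini-Hochberg adjusted p under 0.05 over 23585 genes and at least 2-fold, and the departure from the sum had no limit on fold. Each SE is the size of the log2 change over the root of its F statistic. For 3 against 3 libraries the smallest p of an exact two-sided permutation test is 0.1. DESeq2 1.42.0, limma 3.58.1 on log2(FPKM + 1) and log2(FPKM + 0.1), other filters and scalings, the replicate block, and libraries left out were alternatives. Before each limma fit the log2 values were quantile-normalized between libraries, so its values differ from edgeR's by that step as well as by the scale. Tests were tried on simulated data. Libraries with the same number deviated together in every pair (correlation over 0.1, across 13366 genes) for *L. acidophilus* against anti-CD3 (0.192 to 0.477) and the combination against *L. acidophilus* (0.124 to 0.208), so only there were numbers treated as pairs, from the values and not from a stated design.

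The members and lists were chosen with earlier results of these data known. Named are all members, from each list up to 4 called genes with the largest change in the combination against anti-CD3 and a mean of at least 1 FPKM, the first 2 markers of each cell type (not all of which are printed, and 1 of which is not reported here), and the 3 genes most alike to each member with a mean of at least 1 FPKM; other genes named were chosen after their values were seen. The capitals in the printed sequences were moved from the NFAT core to the Runx core after the motif counts were seen. Promoter sequences and positions are from RefSeq (GRCm38.p6), in which all 10 members matched by gene identifier.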

Additional observations from a re-analysis of the deposited data

Results flagged for a closer look

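The change of Gzma in the combination differed from the sum of the changes with each agent alone, by a log2 value of -3.02 (SE 0.64, edgeR's quasi-likelihood test of the interaction, adjusted p = 0.0248). All 3 combination libraries lay below all 9 others. The adjusted p ranged from 0.0155 to 0.0678 when single libraries were left out, and the call was lost in 6 of these 12 fits. It was also lost with replicates 2 and 3 alone (-3.21, adjusted p = 0.0513). With the replicate block, which is a description only here, the adjusted p was 0.000459.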

How the results depend on the processing

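In the combination against anti-CD3, 3 to 5 members were called when single libraries were left out, 2 to 3 in FK506 against anti-CD3 and 0 in *L. acidophilus* against anti-CD3. In the combination against FK506 the 1 call became 2 with DESeq2 or limma on log2(FPKM + 0.1), 3 with only the 6 libraries compared or with replicates 2 and 3 alone, and 1 to 2 with single libraries left out. In the combination against *L. acidophilus* the 3 calls became 5 with the replicate block or with replicates 2 and 3 alone, and 2 to 5 with single libraries left out (5 without FK506 replicate 1). In FK506 against *L. acidophilus* the 1 call became 2 with limma on log2(FPKM + 0.1) or the replicate block, 3 with replicates 2 and 3 alone, and 0 to 2 with single libraries left out. The departure from the sum gave 2 calls with DESeq2 or the replicate block, 1 with replicates 2 and 3 alone (Fasl in place of Gzma), and 0 to 2 with single libraries left out. In the combination against anti-CD3, DESeq2, the 6 libraries compared, replicates 2 and 3 alone and the replicate block gave 5 calls, adding Gzmc. The block gave 3 in FK506 against anti-CD3. Where the numbers are not treated as pairs, the block is a description only: same-numbered libraries correlated at a mean of 0.204 (-0.12 to 0.486) and others at -0.099. The cause of these differences was not tested.

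Directions turned for changes that were not called in the main fit. Gzma turned in FK506 against anti-CD3 (-0.70 to 0.016 with single libraries left out). Gzmc turned in FK506 against anti-CD3 (-0.80 with replicates 2 and 3 alone, and -0.91 without FK506 replicate 1, with 2.12 the highest) and in *L. acidophilus* against anti-CD3 (-0.10 with the replicate block, -0.48 with replicates 2 and 3 alone, -0.60 without *L. acidophilus* replicate 1). It also turned in the combination against FK506 (-0.27 to 3.42 with single libraries left out) and in FK506 against *L. acidophilus* (-0.31 with replicates 2 and 3 alone, -1.21 to 2.16 with single libraries left out). In the combination against FK506 Gzmc was called without FK506 replicate 1 (3.42, edgeR adjusted p = 0.0296) and with replicates 2 and 3 alone (2.205, edgeR adjusted p = 0.0139). Gzmb in the combination against FK506 turned to -0.08 without FK506 replicate 2 and -0.57 without combination replicate 1, with 1.16 the highest, and Fasl in the combination against *L. acidophilus* ranged from -0.035 to 0.40. Among single genes, 1356 values kept their direction and side of the threshold, 71 lost and 33 gained a call. On log2(FPKM + 1) the change of Gzmk was 0.61 in the combination against anti-CD3, since this scale understates low genes. Depth limits Gzmd to Gzmg, which had at most 15 reads in a library.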
